A study of Mus musculus with 8 samples.

Results

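The acute-phase genes described here are the 4 serum amyloid A genes Saa1, Saa2, Saa3 and Saa4, the lipocalin gene Lcn2, the 3 orosomucoid genes Orm1, Orm2 and Orm3, and the genes of haptoglobin (Hp) and hemopexin (Hpx). They were taken by gene symbol from a table of liver RNA-seq read counts, and all 10 were found among its 19267 genes. All 10 also passed the filter on low counts, which left 13993 genes for testing. RNA of whole liver from male C57BL/6 mice was sequenced in 8 libraries, 2 for each of 4 groups. The groups crossed genotype with diet, and the comparisons ask whether loss of Elf4 in the gut alters the liver of mice fed alcohol. Mice of the WT-Control and WT-EtOH groups were wild type per the labels and Cre mice per the study's methods, so that by these sources all 4 groups carried a Cre. Mice of the Elf4-/--Control and Elf4-/--EtOH groups were Elf4fl/fl-Villin-Cre, that is, a floxed Elf4 was deleted by a Cre recombinase driven by the villin promoter, which is active in intestinal epithelium. Feeding began at 6 weeks of age and lasted 21 days, and the mice were 9 weeks old at sampling. The EtOH groups received a Lieber-DeCarli liquid diet with alcohol at 5% (w/v), and the Control groups were pair-fed maltose dextrin of equal calories.

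In the acute-phase response, cytokines such as IL-6, IL-1 and TNF act on hepatocytes, where STAT3, C/EBP and NF-kB factors raise the transcription of a set of secreted plasma proteins. Serum amyloid A proteins travel on high-density lipoprotein, lipocalin 2 captures bacterial siderophores and so withholds iron, and orosomucoids are carrier proteins of the plasma with immune-modulating activity. Haptoglobin binds free haemoglobin and hemopexin binds free heme, and both complexes are cleared from the blood by cell surface receptors.

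Library totals ran from 6171051 to 9157362 counts, so that 1 count was worth 0.102 to 0.186 CPM, the count relative to a library total scaled with TMM factors. The 10 members together took 0.604% to 1.52% of the counts of a library. Counts of mitochondrial genes took 33.7% and 23.4% for WT-Control, 12.5% and 10.8% for WT-EtOH, 18.7% and 18.5% for Elf4-/--Control, and 22.1% and 18.3% for Elf4-/--EtOH. All 7 hepatocyte markers had counts in every library, with sums of 35159 to 59579 CPM. The deleted gene, Elf4, had 6 and 11 counts for WT-Control, 27 and 36 for WT-EtOH, 12 and 6 for Elf4-/--Control, and 14 and 34 for Elf4-/--EtOH. The liver is outside the tissue in which Elf4 was deleted, so these counts do not check the genotype labels. The labels do not say that replicates came from separate animals, and p-values measure only the spread between these libraries, which may be technical.

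The 4 serum amyloid A genes lie together on chromosome 7 of GRCm38 (mm10), where Saa3 spans chr7:46711998-46715700, Saa4 chr7:46727998-46732603 and Saa1 chr7:46740497-46742980 on the minus strand, and Saa2 spans chr7:46751790-46754313 on the plus strand. Hpx is on the minus strand of the same chromosome at chr7:105591613-105600137. The orosomucoid genes follow each other on the plus strand of chromosome 4, with Orm1 at chr4:63344560-63348163, Orm3 at chr4:63356162-63359511 and Orm2 at chr4:63362449-63365878. Lcn2 is at chr2:32384633-32388252 and Hp at chr8:109575128-109579172, both on the minus strand. GENCODE M21 annotates all 10 as protein coding, and none overlaps another gene. Transcripts of Saa1 and Saa2 were identical at 94.4% of 606 aligned bases, and those of Orm1 and Orm2 at 91.0% of 775. No stretch of 150 bases, the read length, was shared whole within either pair, but 13.2% of the 50-base stretches of Saa1 occur in Saa2 and 20.4% of those of Orm1 occur in Orm2. How reads that match more than 1 gene were counted is not given in the sources used here, so the division of counts between Saa1 and Saa2, and between Orm1 and Orm2, is uncertain.

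Promoter sequences were taken from RefSeq (GRCm38.p6) and matched 8 of the 10 members. Hp and Orm1 had no entry. The stretches of 220 bases that end at the annotated start sites are shown for 6 of these 8 members, 5′ to 3′ on the strand of the gene. Those of Saa4 and Hpx are not shown. Capitals mark a match to the C/EBP motif TTNNGNAA on either strand and, in Saa3, also a match to the NF-kB motif GGNNTTTCC that overlaps one of them. Saa1 is at chr7:46742981-46743200, Saa3 at chr7:46715677-46715896 and Lcn2 at chr2:32387740-32387959, all on the minus strand. Saa2 is at chr7:46751613-46751832, Orm2 at chr4:63362229-63362448 and Orm3 at chr4:63355938-63356157, all on the plus strand.
Saa1: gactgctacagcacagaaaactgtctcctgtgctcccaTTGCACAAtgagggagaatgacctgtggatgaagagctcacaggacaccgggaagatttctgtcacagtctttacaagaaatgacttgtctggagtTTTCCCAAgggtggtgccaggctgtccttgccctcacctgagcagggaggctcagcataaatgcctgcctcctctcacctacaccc
Saa2: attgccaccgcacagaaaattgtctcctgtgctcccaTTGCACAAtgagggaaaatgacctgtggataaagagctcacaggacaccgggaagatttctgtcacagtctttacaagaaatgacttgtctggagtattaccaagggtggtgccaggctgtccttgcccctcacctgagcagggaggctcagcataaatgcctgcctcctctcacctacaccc
Saa3: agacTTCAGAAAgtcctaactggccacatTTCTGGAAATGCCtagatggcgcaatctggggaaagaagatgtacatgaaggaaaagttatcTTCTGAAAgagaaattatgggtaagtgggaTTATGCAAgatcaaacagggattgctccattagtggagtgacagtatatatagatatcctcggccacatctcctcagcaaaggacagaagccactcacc
Lcn2: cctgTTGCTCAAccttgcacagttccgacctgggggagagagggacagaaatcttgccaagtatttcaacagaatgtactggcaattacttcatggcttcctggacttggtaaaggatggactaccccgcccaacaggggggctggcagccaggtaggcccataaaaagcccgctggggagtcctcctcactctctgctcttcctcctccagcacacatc
Orm2: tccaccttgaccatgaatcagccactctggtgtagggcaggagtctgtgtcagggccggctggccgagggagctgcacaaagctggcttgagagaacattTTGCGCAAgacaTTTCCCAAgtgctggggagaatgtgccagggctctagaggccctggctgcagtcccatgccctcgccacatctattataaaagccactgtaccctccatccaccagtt
Orm3: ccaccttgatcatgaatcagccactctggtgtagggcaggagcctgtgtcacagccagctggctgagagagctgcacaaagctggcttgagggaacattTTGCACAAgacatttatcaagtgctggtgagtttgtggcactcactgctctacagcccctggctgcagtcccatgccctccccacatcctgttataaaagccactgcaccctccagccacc

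All 8 member promoters with an entry held the C/EBP motif within 250 bases upstream, a motif found in 36.85% of 32851 RefSeq promoters of that length. Saa1 and Saa2 were identical at 95.6% of 249 aligned promoter bases and shared a match, at bases -182 to -175 of Saa1 and -183 to -176 of Saa2, but the second match of Saa1, at bases -86 to -79, has no counterpart among the matches of Saa2. Orm2 and Orm3 were identical at 89.0% of 245 bases. They shared a match, at bases -120 to -113 of Orm2 and -121 to -114 of Orm3, and the match of Orm2 at bases -108 to -101 was not found in Orm3. The NF-kB motif was found in Saa3 alone, at bases -187 to -179 on the minus strand, and in 4.93% of all promoters. None of the 8 held the IL-6 response element CTGGGAA, the STAT motif TTCNNNGAA or the HNF1 motif GTTAATNAT, which were found in 9.10%, 7.02% and 0.737% of all promoters. All motifs were searched on both strands, and a match is a run of letters, not a measured binding site.

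**Figure D1:**
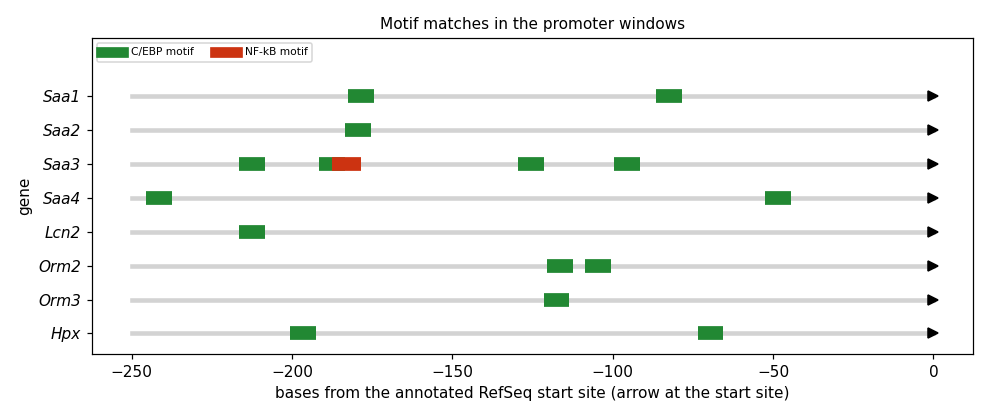
Matches to the C/EBP motif (green) and the NF-kB motif (red) in the 250 bases upstream of the annotated start site of the 8 members with a RefSeq promoter. The horizontal axis is the distance in bases from the start site, marked by an arrow. Saa3 holds 4 C/EBP matches and the only NF-kB match, at bases -187 to -179.

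Per kilobase of the coding transcript, the median level over the 8 libraries was highest for Hp, at 3057 CPM per kb, followed by Hpx at 1972 and Orm1 at 1169.95. The other members were lower, with Saa1 at 119.6, Saa4 at 106, Saa2 at 71.8, Orm2 at 35.3, Saa3 at 20.6, Lcn2 at 15.2 and Orm3 at 8.88 CPM per kb. The ranges of all neighbours in this order overlapped. Within a library Hpx was above Orm1 and Orm1 above Saa1 in 8 of 8 libraries, whereas Saa1 was above Saa4 in 4 of 8. Hp, Hpx and Orm1 together held 89.5% to 96.4% of the members' counts.

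Saa1 and Saa2 had the widest spread of the serum amyloid family. Saa1 stood at 116.9 and 537 CPM for WT-Control, 153.5 and 29.4 for WT-EtOH, 19.4 and 41.5 for Elf4-/--Control, and 104 and 23.0 for Elf4-/--EtOH (replicates 1 and 2). Saa2 stood at 86.0 and 635 CPM for WT-Control, 72.6 and 15.2 for WT-EtOH, 12.1 and 12.8 for Elf4-/--Control, and 71.9 and 13.9 for Elf4-/--EtOH. For both genes the second WT-Control library was the highest of all 8 and the first Elf4-/--Control library the lowest. The replicates differed by 7.38-fold for Saa2 in WT-Control and by only 1.06-fold for Elf4-/--Control. The ratio of Saa2 to Saa1 counts ran from 0.309 in the second Elf4-/--Control library to 1.18 in the second WT-Control library.

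Saa3, an inducible member that is also made by macrophages and fat cells, and Saa4, a constitutive serum amyloid of the liver, varied less. Saa3 stood at 12.9 and 20.8 CPM for WT-Control, 12.3 and 10.3 for WT-EtOH, 7.99 and 9.25 for Elf4-/--Control, and 20.7 and 10.6 for Elf4-/--EtOH. Saa4 stood at 383 and 399 CPM for WT-Control, 206 and 104 for WT-EtOH, 165 and 391 for Elf4-/--Control, and 238 and 174 for Elf4-/--EtOH. The WT-Control libraries were above both WT-EtOH libraries for each of these genes, narrowly so for Saa3. Saa4 was 2.36-fold apart between the Elf4-/--Control replicates, and its second Elf4-/--Control library was as high as WT-Control.

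Lcn2 and Orm3 were set apart from the other members by 1 library. Lcn2 stood at 28.5 and 62.9 CPM for WT-Control, 21.1 and 6.62 for WT-EtOH, 3.38 and 3.58 for Elf4-/--Control, and 138 and 6.50 for Elf4-/--EtOH. Orm3 stood at 8.02 and 16.01 CPM for WT-Control, 6.70 and 2.45 for WT-EtOH, 1.54 and 4.62 for Elf4-/--Control, and 112 and 7.03 for Elf4-/--EtOH. The first Elf4-/--EtOH library was the highest of all 8 for both genes, with 868 counts of Lcn2 and 703 of Orm3, while the second held 49 and 53. The replicates of that group thus differed by 21.3-fold for Lcn2 and by 15.9-fold for Orm3, against 5.16-fold for Saa2 and 1.21-fold for Orm1. 

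Orm1, the main orosomucoid of these livers, stood at 1109.95 and 1571 CPM for WT-Control, 1215 and 588 for WT-EtOH, 553 and 725 for Elf4-/--Control, and 994 and 819 for Elf4-/--EtOH. Orm2 stood at 56.1 and 139.8 CPM for WT-Control, 70.9 and 12.6 for WT-EtOH, 7.79 and 14.2 for Elf4-/--Control, and 37.5 and 17.2 for Elf4-/--EtOH. Orm1 made up 86.9% of the orosomucoid counts in the first Elf4-/--EtOH library, where Orm3 was high, and 90.98% to 98.3% in the other 7. For both genes the WT-Control libraries lay above the Elf4-/--Control libraries, and the WT-EtOH pair spanned a range that included the Elf4-/--EtOH pair.

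The scavengers Hp and Hpx were the most abundant members. Hp stood at 6351 and 7387 CPM for WT-Control, 4609 and 2749.85 for WT-EtOH, 2293 and 3613 for Elf4-/--Control, and 4643 and 2593 for Elf4-/--EtOH. Hpx stood at 4674 and 6487 CPM for WT-Control, 3704 and 1565 for WT-EtOH, 2705 and 3086 for Elf4-/--Control, and 2040.4 and 2827 for Elf4-/--EtOH. For both genes the WT-Control libraries were the highest of the 8, and the other 3 groups overlapped. From its lowest to its highest library Hp differed by 3.22-fold and Hpx by 4.15-fold, against 2.60-fold for Saa3, 2.84-fold for Orm1 and 3.82-fold for Saa4 among the other narrow ranges, and 52.5-fold for Saa2 and 72.9-fold for Orm3 among the wide ones.

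**Figure D2:**
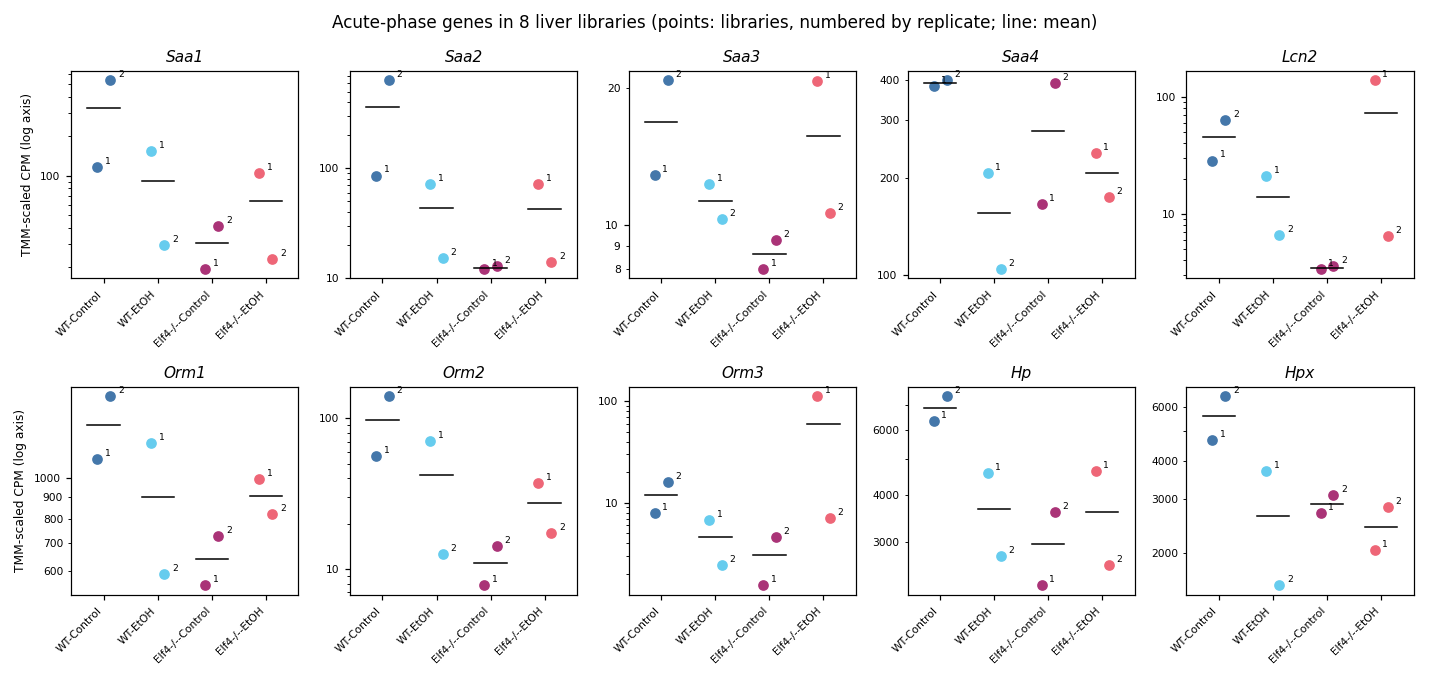
TMM-scaled CPM (log axis, a separate scale for each gene) of the 10 members in 8 liver libraries. Points are libraries, numbered by replicate, and the line is the mean of the pair. The second WT-Control library is the highest for 8 members, and the first Elf4-/--EtOH library is the highest for Lcn2 (138 CPM) and Orm3 (112 CPM).

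Under control diet every member had a lower fitted level in Elf4-/- than in WT and none passed the test. The differences ran from 28.9-fold lower for Saa2 to 1.41-fold lower for Saa4. The median log2 fold change of the 10 was -1.62, beside 0.01 over all 13993 genes. In bulk liver, fewer cells of a type and less RNA per cell cannot be told apart. With edgeR's quasi-likelihood test 0 of 10 members were called, where 0.0143% of all genes were called, and adjusted p ran from 0.282 to 0.863. At an unadjusted p under 0.05 there were 8 of 10, all lower, against 7.31% of all genes in either direction. DESeq2 called 1 member, Saa2, and 70 of all 13993 genes, against 2 by edgeR. Both Elf4-/--Control libraries lay below both WT-Control libraries for 9 of 10, all but Saa4, as for 18.5% of all genes tested.

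The fitted log2 differences of the serum amyloid genes between Elf4-/--Control and WT-Control were -4.85 (SE 1.10, adjusted p 0.282) for Saa2, -3.43 (SE 0.97, adjusted p 0.406) for Saa1, -0.97 (SE 0.36) for Saa3 and -0.49 (SE 0.41) for Saa4. Lcn2 differed by -3.71 (SE 1.15, adjusted p 0.477) and Orm2 by -3.17 (SE 0.76, adjusted p 0.315). The other orosomucoids differed by -2.03 (SE 1.13) for Orm3 and -1.07 (SE 0.36) for Orm1, and the scavengers by -1.22 (SE 0.40) for Hp and -0.95 (SE 0.41) for Hpx. Without the second WT-Control library the count at an unadjusted p under 0.05 was 3 in place of 8, and Saa2 stood at -2.78 and Saa1 at -1.94. It was also 3 without the first Elf4-/--Control library, which turned Saa4 to 0.01. With the first Elf4-/--EtOH library left out of the spread estimate Saa2 stood at -4.85 and Lcn2 at -3.71. With the second left out they stood at -4.84 and -3.70. The WT-Control libraries also had the highest shares of mitochondrial counts, and endothelial and stellate cell markers were higher in Elf4-/--Control. The 5 endothelial markers summed to 81.7 and 46.0 CPM for WT-Control and to 121 and 122 for Elf4-/--Control, and the 6 stellate cell markers to 66.2 and 29.3 and to 116 and 82.0. None of the endothelial and stellate cell markers was called by edgeR, with 5 of 5 and 3 of 6 at an unadjusted p under 0.05. The 10 Kupffer and macrophage markers went the other way, with 3 of 10 positive. They summed to 291 and 225 CPM for WT-Control and to 219 and 211 for Elf4-/--Control. The 7 hepatocyte markers summed to 43436 and 57102 CPM and to 53613 and 59579, with 4 of 7 positive. The part of all these markers and of the mitochondrial share in the differences was not tested.

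In WT mice the alcohol diet went with lower levels of all 10 members, and 1 passed the test. Saa4 fell by 1.33 on the log2 scale (2.52-fold lower, SE 0.42, edgeR adjusted p 0.0469), from 383 and 399 CPM to 206 and 104. With 1 of 10 called, against 21.6% of all genes in this comparison, the share among the members was below this background. The count at an unadjusted p under 0.05 was 4 of 10, against 36.4% of all genes. Both WT-EtOH libraries were below both WT-Control libraries for 7 of 10, against 32.7% of all genes. The median log2 fold change of the members was -1.29, beside 0.01 over all genes.

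By edgeR adjusted p Saa2 was next, at -3.04 (SE 0.998, adjusted p 0.0543), followed by Hpx at -1.08 (SE 0.41, adjusted p 0.0871) and Hp at -0.90 (SE 0.40, adjusted p 0.133). With Saa4 these were the 4 at an unadjusted p under 0.05. Saa1 stood at -1.84 (SE 0.91, adjusted p 0.171), Lcn2 at -1.74 (SE 1.01, adjusted p 0.242) and Orm3 at -1.42 (SE 1.06, adjusted p 0.364). Orm2 stood at -1.24 (SE 0.69), Saa3 at -0.58 (SE 0.35) and Orm1 at -0.57 (SE 0.36). The call of Saa4 was lost when any 1 of the 4 WT libraries was left out, with values of -1.91 to -0.93, when library totals replaced TMM (-0.91), and with the replicate number as a block (-1.34). Without the second WT-Control library Saa2 stood at -0.98 and Saa1 at -0.36, and without the second WT-EtOH library at -2.31 and -1.09. Without the first WT-EtOH library Saa2 stood at -4.56 and Saa1 at -3.47. With library totals alone the median of all genes was 0.44 in this comparison and 0.24 in that of genotypes under control diet, beside 0.01 with TMM in each, and no member turned its direction in either. Markers of other liver cells differed between the same libraries: all 10 Kupffer and macrophage markers were called higher in WT-EtOH (summed 726 to 827 CPM, from 225 to 291), as were 5 of 5 endothelial markers. The 7 hepatocyte markers summed to 40330 and 35159 CPM for WT-EtOH, from 43436 and 57102 for WT-Control, with a median of -0.62, 1 of 7 positive and 4 of 7 at an unadjusted p under 0.05. The part of these markers in the members' values was not tested.

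In Elf4-/- mice 8 of the 10 members had higher fitted levels with the alcohol diet, and none passed the test. Lcn2 stood at 4.37 (20.7-fold, SE 1.16, edgeR adjusted p 0.0728) and Orm3 at 4.33 (20.1-fold, SE 1.10, adjusted p 0.0648) on the log2 scale. The serum amyloids Saa2, Saa1 and Saa3 stood at 1.78 (SE 0.996), 1.07 (SE 0.91) and 0.86 (SE 0.35), and Orm2 at 1.33 (SE 0.74). Orm1 stood at 0.50 (SE 0.36), Hp at 0.29 (SE 0.40), Hpx at -0.25 (SE 0.41) and Saa4 at -0.43 (SE 0.41). The median of the 10 was 0.96, beside 0.01 over all genes. By edgeR 0 of 10 were called, against 2.89% of all genes, and 3 of 10 (Lcn2, Orm3 and Saa3, all higher) were at an unadjusted p under 0.05, against 21.2%. DESeq2 called Lcn2 and Orm3, and 789 of all 13993 genes, against 404 by edgeR. For 6 of 10 both Elf4-/--EtOH libraries were above both Elf4-/--Control libraries, against 25.8% of all genes.

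The 2 largest of these differences rested on the first Elf4-/--EtOH library. Without it Lcn2 stood at 0.90 and Orm3 at 1.25, Saa1 turned to -0.39 and Hp to -0.19, and 0 members were at an unadjusted p under 0.05. Without the second Elf4-/--EtOH library, and so with the first as the only one of its group, Lcn2 stood at 5.29, Orm3 at 5.25 and Saa3 at 1.25. Without the second Elf4-/--Control library Saa4 turned to 0.32. The first Elf4-/--EtOH library also had the highest summed level of neutrophil markers. Of 11 such markers 6 were in the table, and their summed level was 15.6 CPM there, 2.12 in the second Elf4-/--EtOH library and 1.43 to 7.44 in the 6 others. S100a8 and S100a9 had 26 and 45 counts in the first Elf4-/--EtOH library and 5 and 8 in the second, and Retnlg had 12 and 0, Mmp8 10 and 1, and Cxcr2 5 and 2. Elane had 0 in both and at most 3 in any library. The second WT-Control library, next highest for Lcn2 at 62.9 CPM, had a neutrophil marker sum of 2.58 CPM. The second WT-EtOH library, next highest in that sum at 7.44 CPM, had Lcn2 at 6.62 CPM. Monocyte and stellate cell markers summed to 21.0 and 312 CPM in the first Elf4-/--EtOH library and to 9.15 and 184 in the second. Those of hepatocytes, bile duct and intestinal epithelium summed lower in the first. Neutrophils store lipocalin 2 in granules, and the part of these cells in the Lcn2 value was not tested.

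Under the alcohol diet the members did not lie in 1 direction between genotypes, with 5 higher and 5 lower in Elf4-/- and a median of -0.01. Orm3 differed by 3.72 on the log2 scale (SE 1.04, edgeR adjusted p 0.251) and Lcn2 by 2.39 (SE 1.01, adjusted p 0.451). The other 8 lay between -0.61 for Orm2 and 0.47 for Saa3, with adjusted p of 0.699 to 0.996. By edgeR and by DESeq2 0 of 10 were called, against 0.143% of all genes by edgeR and 178 of 13993 by DESeq2. By edgeR Lcn2 and Orm3 were the 2 of 10 at an unadjusted p under 0.05, against 10.5%. Orm3 was the only member, 1 of 10, whose Elf4-/--EtOH libraries both lay above both WT-EtOH libraries, as for 20% of all genes. Without the first Elf4-/--EtOH library Lcn2 turned to -1.06 and Orm3 stood at 0.65, and none was at an unadjusted p under 0.05. Without the second Elf4-/--EtOH library Lcn2 stood at 3.33 and Orm3 at 4.64. Without any 1 of the 4 libraries of the control diet Lcn2 stood at 2.39 to 2.40 and Orm3 at 3.72 to 3.73. All 10 Kupffer and macrophage markers were lower in Elf4-/--EtOH at an unadjusted p under 0.05 by edgeR, against 10.5% of all genes. Their median was -1.35, and Cd5l and Clec4f were called. The 10 markers summed to 322 and 298 CPM, from 827 and 726 for WT-EtOH. Hepatocyte markers had a median of 0.37, with 6 of 7 positive. The part of these markers in the members' values was not tested.

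**Figure D3:**
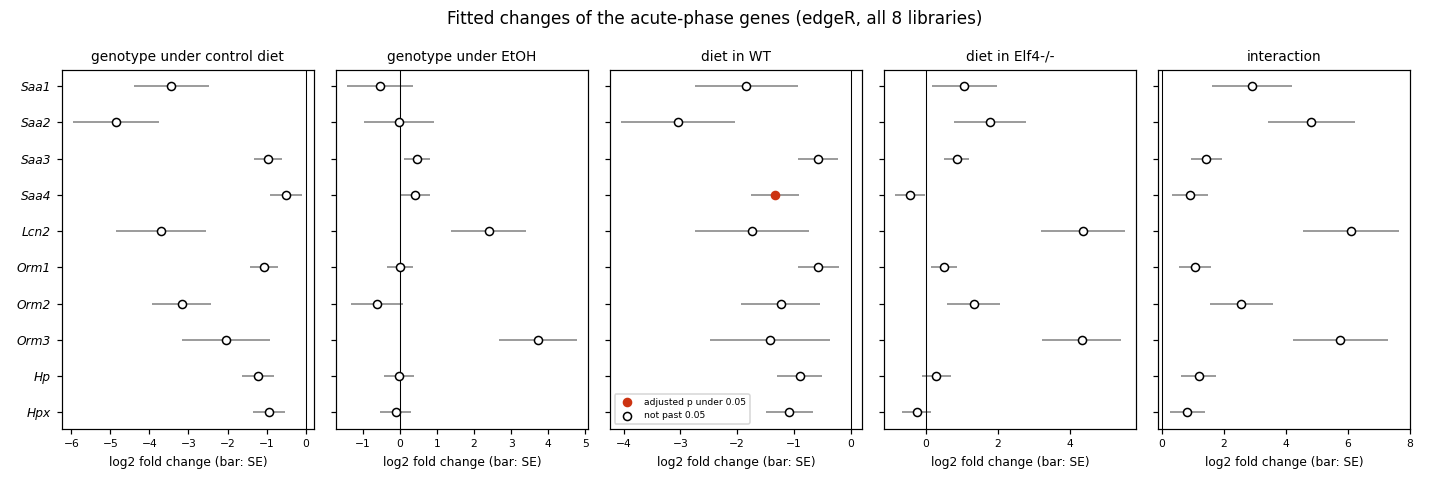
Fitted log2 fold change (points) and its SE (bars) of the 10 members in 5 contrasts: Elf4-/- minus WT under each diet, EtOH minus Control in each genotype, and the interaction (diet difference in Elf4-/- minus that in WT). The filled point, Saa4 with diet in WT, is the only one at an adjusted p under 0.05. All 10 points lie left of 0 under control diet, and Lcn2 and Orm3 lie farthest right in the other comparisons of Elf4-/--EtOH.

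The interaction asks whether the diet difference itself differed between genotypes. It was positive for all 10 members, that is, the diet difference was more positive in Elf4-/- than in WT, with a median of 2.001 on the log2 scale beside 0.00 over all genes. The values were 6.11 (SE 1.54) for Lcn2, 5.75 (SE 1.53) for Orm3, 4.82 (SE 1.40) for Saa2, 2.91 (SE 1.28) for Saa1 and 2.56 (SE 1.01) for Orm2. Saa3, Hp, Orm1, Saa4 and Hpx stood at 1.44, 1.19, 1.08, 0.90 and 0.83 (SE 0.50 to 0.58). Neither edgeR nor DESeq2 called any member. Over all genes edgeR called 0% in this contrast and DESeq2 98 of 13993. Adjusted p by edgeR ran from 0.273 to 0.67. At an unadjusted p under 0.05 there were 6 of 10 by edgeR and 6 by DESeq2, against 10.1% of all genes by edgeR and 1080 of 13993 by DESeq2. The interaction draws on the same WT-Control and Elf4-/--Control libraries as the comparisons above, so its sign adds no separate evidence to theirs. Without the second WT-Control library the edgeR count at an unadjusted p under 0.05 was 2, and without the first Elf4-/--EtOH library or the first Elf4-/--Control library it was 3. Without the second WT-EtOH library Saa2 stood at 4.07 and Saa1 at 2.15, and without the first at 6.32 and 4.52. Without the second Elf4-/--EtOH library Lcn2 stood at 7.04 and Orm3 at 6.68.

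**Figure D4:**
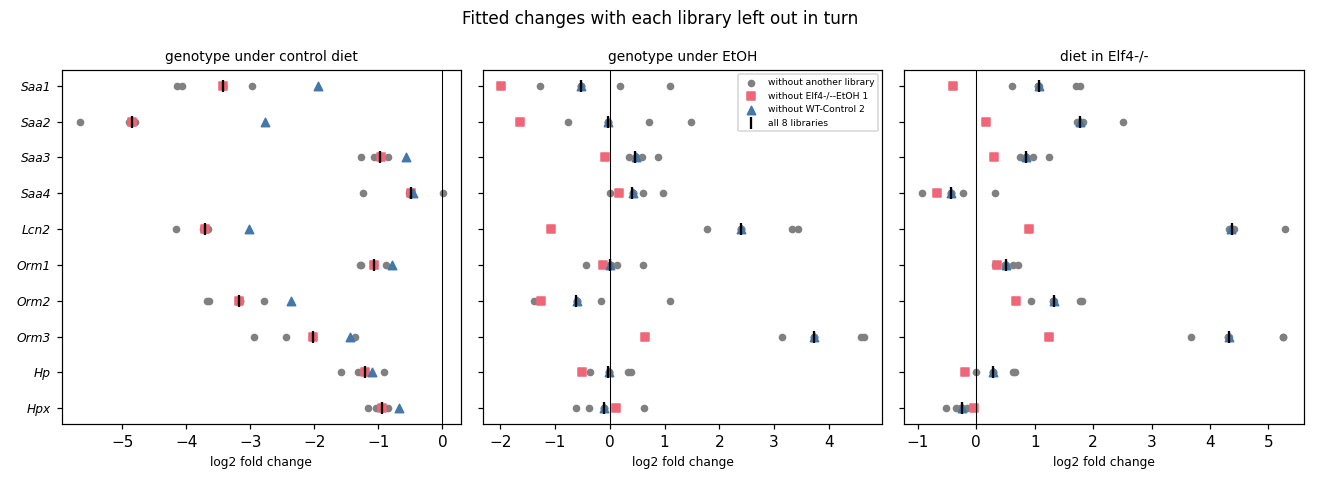
Fitted log2 fold change of each member with all 8 libraries (black bar) and with each library left out in turn, in 3 contrasts. Red squares leave out the first Elf4-/--EtOH library and blue triangles the second WT-Control library. Lcn2 moves from 4.37 to 0.90 with diet in Elf4-/- without the first, and Saa2 from -4.85 to -2.78 under control diet without the second.

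Each member's log2 CPM was centred on its mean over the 8 libraries, and the mean of the 10 was 0.60 and 1.64 for WT-Control, 0.42 and -1.02 for WT-EtOH, -1.25 and -0.63 for Elf4-/--Control, and 0.92 and -0.68 for Elf4-/--EtOH. Within 3 of the groups the replicates thus stood more than 1 log2 unit apart. The nearest pattern among other genes, by the root mean square difference of centred log2 CPM over the 8 libraries, was that of Apcs, the gene of the mouse acute-phase pentraxin serum amyloid P, for Saa1 (0.83) and Orm2 (0.71). Fgl1, a secreted fibrinogen-like liver protein, came second for both, at 0.98 and 0.72. For Saa2 the nearest genes were Gm28439 (1.14) and Apcs (1.17). Saa3 was nearest to Pla2g12b (0.20) and Rcl1 (0.21). Lcn2 was nearest to the immediate early gene Egr1 (0.98) and to the stress cytokine gene Gdf15 (1.07). The members' own patterns had a root mean square size of 1.53 for Saa1, 1.88 for Saa2, 0.47 for Saa3, 1.81 for Lcn2 and 1.33 for Orm2. A difference is to be read beside the size for the same gene. Among members, Saa1 lay nearest to Orm2 (0.41), Saa2 to Saa1 (0.51), Saa3 to Orm1 (0.31) and Lcn2 to Orm3 (0.83).

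Of 24 other positive acute-phase genes tested, 4 were called with diet in WT, a share below the 21.6% of all genes. In each of the other 4 contrasts edgeR called 0, against 0% to 2.89% of all genes. At an unadjusted p under 0.05 there were 9 of 24 with diet in WT, against 36.4%, and 9 with diet in Elf4-/-, against 21.2%. There were 8 between genotypes under control diet, against 7.31%. Under EtOH there were 4, against 10.5%, and in the interaction 4, against 10.1%. Serpina3m, a serine protease inhibitor, rose by 1.48 on the log2 scale (SE 0.41, edgeR adjusted p 0.0305) and C3, the central complement protein, by 0.97 (SE 0.27, adjusted p 0.0311). Apcs fell by 1.27 (SE 0.39, adjusted p 0.0424) and the copper carrier Cp by 1.15 (SE 0.31, adjusted p 0.0277). Under control diet the median of these genes between genotypes was -0.68, with 7 of 24 positive, beside -1.62 and 0 of 10 for the members. With diet in WT it was 0.29, with 14 of 24 positive, beside -1.29 and 0 of 10 for the members. Lbp, which hands endotoxin to its receptor complex, stood at 91.7 and 82.1 CPM for WT-Control, 97.9 and 55.7 for WT-EtOH, 30.2 and 46.8 for Elf4-/--Control, and 196 and 32.0 for Elf4-/--EtOH. It was highest in the same library as Lcn2 and Orm3. Hamp, the gene of the iron hormone hepcidin, was lowest there, at 11.5 CPM, and stood at 68.3 CPM in the second WT-Control library and at 318 to 955 CPM in the 6 others. Neither Lbp nor Hamp, and neither Serpina3n, a further protease inhibitor, nor the fibrinogen chain Fgb, was called in any of the 5 contrasts by edgeR, with adjusted p of 0.12 to 0.92.

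**Figure D5:**
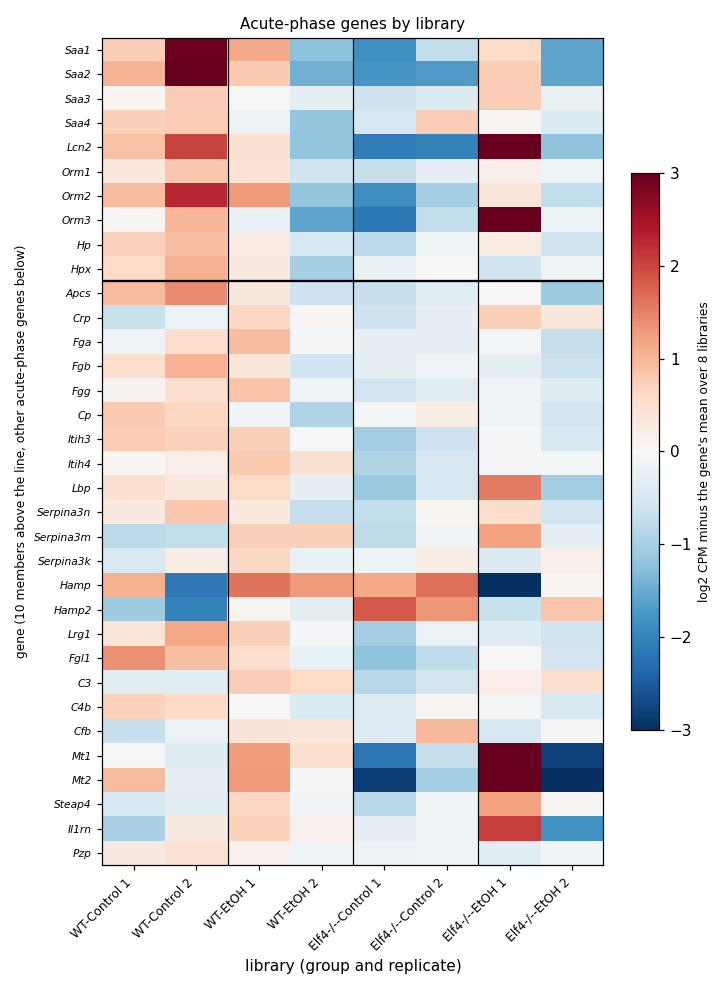
Log2 CPM of the 10 members (above the line) and 24 other positive acute-phase genes (below), each centred on its mean over the 8 libraries. Columns are libraries by group and replicate, and colours are limited to 3 log2 units either side of the mean. Each WT-Control library is above the mean for all 10 members and 15 of the 24 other genes, the first WT-EtOH library for 7 and 22, and the first Elf4-/--EtOH library for 9 and 9.

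The inducing cytokines were near the limit of detection in these livers. Il6 had 0 and 0 counts for WT-Control, 4 and 6 for WT-EtOH, 0 and 0 for Elf4-/--Control, and 0 and 3 for Elf4-/--EtOH, and Tnf had 1 to 9 counts in every library, so neither was tested. A count of 0 allows up to 3 counts, by counting error alone. Il1b, with 4 to 36 counts, was not called in any contrast (edgeR adjusted p 0.137 to 0.99). Of 11 receptors tested only Il6st, the shared signal chain of the IL-6 family receptors, was called, and it rose by 0.87 (SE 0.28, adjusted p 0.049) with diet in WT. The IL-6 receptor gene Il6ra stood at -1.13 with diet in Elf4-/- (adjusted p 0.18) and between -0.68 and 0.57 in the other contrasts. Among 13 signal carriers and transcription factors Tyk2, a Janus kinase, fell by 0.96 (SE 0.23, adjusted p 0.0189) with diet in WT, and Stat3, Cebpb and Cebpd were not called in any contrast. Of 5 feedback inhibitors tested Pias3, an inhibitor of STAT3, fell by 1.52 (SE 0.36, adjusted p 0.0161) in the same comparison, and Socs3 was not called in any. With diet in WT 21.6% of all genes were called.

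Binding partners of the members and genes that clear what the members bind were mostly called higher where they were called. Of 12 such genes tested, 5 were called higher and 1 lower with diet in WT, where 21.6% of all genes were called. The median of the 12 was 1.21, beside -1.29 for the members. Hmox1, which breaks down heme, rose by 2.39 (SE 0.55, edgeR adjusted p 0.0152), Blvrb, which reduces biliverdin, by 2.33 (SE 0.26, adjusted p 0.00139), the heme transporter Slc48a1 by 1.97 (SE 0.40, adjusted p 0.00897) and Cd163, the macrophage receptor for haptoglobin and haemoglobin, by 1.67 (SE 0.48, adjusted p 0.0341). In Elf4-/- mice Blvrb alone was called, at 1.65 (SE 0.25, adjusted p 0.0162). Several of these genes are expressed by macrophages, whose markers were called higher in the same libraries, and the part of cell numbers in their values was not tested. Of 9 negative acute-phase genes, Apoa1, the main protein of high-density lipoprotein, fell by 2.34 (SE 0.42, adjusted p 0.00592) with diet in WT and Rbp4, the retinol carrier, rose by 0.99 (SE 0.31, adjusted p 0.0457), while Alb stood at -0.62 and was not called.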

How the data were processed

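RNA of mouse liver was extracted with Trizol and sequenced as paired-end reads by the authors, who mapped the reads to mm10 with HISAT2, sorted them with SAMtools, counted them per gene with HTSeq and tested the counts with DESeq2. Versions, annotation and strand setting are not given in the sources used here. The deposited table holds raw read counts for 19267 gene symbols in 8 libraries, with 968 blank lines that were left out.

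All 8 libraries entered 1 model with a factor of 4 groups in edgeR 4.0.16 (R 4.3.3), with TMM scaling and filterByExpr by group, and each contrast was tested with the quasi-likelihood test and Benjamini-Hochberg adjustment over the 13993 genes that passed, at a threshold of 0.05. SE is the log2 fold change divided by the square root of F. Centred log2 CPM used a prior count of 2. The script was tested on simulated data. Totals of 6171051 to 9157362 counts and 2 libraries a group set the precision, and intervals for counting error cover counting only, since PCR copies were not separated.

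The alternatives were the DESeq2 1.42.0 Wald test, DESeq2 size factors, library totals, no low-count filter, only the 4 libraries compared, the replicate number as a block, and leaving out each library. The members and gene lists were chosen with earlier results of these data known. All members are named. Of other lists except the cell type markers, called genes are named, at most 4 a list and contrast by size of change. Also named are Il6, Il1b, Tnf, Stat3, Socs3, Cebpb, Cebpd, Il6ra, Lbp, Serpina3n, Hamp, Fgb and Alb. Cell type markers are given mostly as sums and counts, and not every called marker is named. Cd5l and Clec4f were named after their values were seen. Nearest patterns were sought for Saa1, Saa2, Saa3, Lcn2 and Orm2 among genes averaging 50 counts or more. Counts of members at an unadjusted p under 0.05 were added as a result after seeing the data, and Elane, S100a8, S100a9, Retnlg, Mmp8, Cxcr2 and Elf4 were named after their values were seen. Transcripts and positions came from GENCODE M21 (GRCm38) and promoters from RefSeq. Proteins were not analysed here.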

Additional observations from a re-analysis of the deposited data

Results flagged for a closer look

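The diet difference of 4 members was in opposite directions in the 2 genotypes in every library. Both EtOH libraries lay below both Control libraries in WT and above them in Elf4-/-. Some gaps were narrow. For Saa3 the first WT-EtOH library stood at 12.3 CPM and the first WT-Control library at 12.9. For Saa2 the second Elf4-/--EtOH library stood at 13.9 CPM and the second Elf4-/--Control library at 12.8. Of all 13993 genes, 32.7% met the condition in WT and 25.8% that in Elf4-/-, each taken alone. The share of all genes that met both was not computed, so the count of 4 has no direct background. The interaction on the log2 scale was 4.82 for Saa2, 1.44 for Saa3, 6.11 for Lcn2 and 5.75 for Orm3. The difference was tested by edgeR's quasi-likelihood test and passed the threshold for none of them, with adjusted p of 0.314, 0.379, 0.273 and 0.277. Without the first Elf4-/--EtOH library the values were 3.21, 0.89, 2.64 and 2.67, and without the second WT-Control library 2.75, 1.05, 5.42 and 5.16.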

How the results depend on the processing

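Of 690 alternative values of the members' log2 fold changes, 633 kept their direction and their side of the threshold, 31 passed it where they had not, 6 (all of Saa4 with diet in WT) no longer passed it and 20 changed sign, none of them a called value. Under the DESeq2 Wald test 1 member was called under control diet between genotypes, 3 with diet in WT and 2 with diet in Elf4-/-. Over all 13993 genes these counts were 70, 2809 and 789. With only the 4 libraries compared 2, 3 and 0 members were called, beside 22 of 12802, 3513 of 13267 and 40 of 13257 genes. In that setting 7 members and 5306 genes were at an unadjusted p under 0.05 with diet in WT. Without a filter 2 members were called with diet in WT and 2 in Elf4-/-, beside 2884 and 564 of 19267 genes. With library totals alone 0 and 0 members were called, beside 4056 and 327 of 13993 genes. At an unadjusted p under 0.05 in WT there were then 2 members and 5804 genes. Between genotypes under EtOH the unadjusted count was 1 in place of 2 with DESeq2, library totals, the 4 libraries compared or the block. Over all genes that count was 1118, 1893, 1249 and 1327 in these settings, beside 1470 in the main fit. The replicate numbers do not pair the samples by the labels, and deviations of same-numbered libraries correlated at -0.11 to 0.06. With the replicate block 0 members were called with diet in WT, where Saa4 stood at -1.34, beside 2639 of 13993 genes. No member's call changed in the other contrasts. Leaving out each library gave 0 to 2 members called between genotypes under EtOH, 0 to 2 under control diet, 0 to 5 with diet in WT, 0 to 3 with diet in Elf4-/- and 0 to 2 in the interaction. The counts at an unadjusted p under 0.05 then ran from 0 to 3, 3 to 9, 0 to 8, 0 to 5 and 2 to 10. Where a group kept 1 library, that library was assumed to vary like the other groups. The number of all genes called also moved with the library left out, so these counts are not a result about the members alone. Signs changed between genotypes under EtOH for Orm1 with library totals (-0.22), and, leaving out libraries (range), for Saa1 (-1.98 to 1.10), Saa2 (-1.64 to 1.48), Saa3 (-0.078 to 0.87), Saa4 (-0.00019 to 0.97), Lcn2 (-1.06 to 3.43), Orm1 (-0.42 to 0.62), Orm2 (-1.38 to 1.10), Hp (-0.50 to 0.39) and Hpx (-0.61 to 0.63). They also changed under control diet for Saa4 (-1.24 to 0.0066) and with diet in Elf4-/- for Saa1 (-0.39 to 1.77), Saa4 (-0.93 to 0.32) and Hp (-0.19 to 0.66). The cause was not tested.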
